A study of Mus musculus with 6 samples.

Results

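Nr4a1, Nr4a2 and Nr4a3, the 3 genes of the Nr4a family of orphan nuclear receptors, were followed in pancreatic islets of mice that lacked Ffar3 or were wild type. The members were the rows of the deposited tables that carry these 3 gene symbols, 3 of 23179 rows. All 3 passed the filter of a mean of at least 1 FPKM (sequenced fragments scaled by transcript length and by a factor for the library) over the 6 libraries, as did 11669 rows in all. The knockout libraries (KO) came from islets of Ffar3-/- mice and the reference libraries (WT) from islets of wildtype mice, 3 libraries each. All mice were C57BL/6J males aged 10 to 14 weeks, and each library was made from total RNA of islets selected from isolations pooled over 2 pancreata. Ffar3 encodes a cell surface receptor that senses short-chain fatty acids such as propionate. Wherever values are given per library, they stand in the order of replicates 1, 2 and 3. How the knockout was made, and whether the WT mice were littermates, is not given in the sources used here.

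Nr4a1 (Nur77), Nr4a2 (Nurr1) and Nr4a3 (Nor1) are transcription factors whose ligand pocket is closed by bulky side chains, so their activity is set mainly by how much of each protein a cell makes. They are immediate early genes: cAMP, calcium entry and growth factors switch them on within minutes, largely through CREB bound at cAMP response elements (CREs). The proteins bind DNA as monomers at an element called the NBRE or as dimers, and Nr4a1 and Nr4a2 can also pair with the retinoid X receptors. In beta cells, glucose and incretin hormones induce the family.

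The sequence before each gene's RefSeq start is shown because all 3 windows hold the same number of CRE core sequences. Build GRCm38.p6 was used, the assembly of the submitters' mm10, and each sequence is written 5′ to 3′ on the gene's strand. Capitals mark TGACG, the core of the CRE, or the same letters on the other strand (CGTCA). The windows are Nr4a1 at chr15:101266596-101266845 on the plus strand, Nr4a2 at chr2:57124004-57124253 on the minus strand and Nr4a3 at chr4:48045055-48045152 on the plus strand.
Nr4a1: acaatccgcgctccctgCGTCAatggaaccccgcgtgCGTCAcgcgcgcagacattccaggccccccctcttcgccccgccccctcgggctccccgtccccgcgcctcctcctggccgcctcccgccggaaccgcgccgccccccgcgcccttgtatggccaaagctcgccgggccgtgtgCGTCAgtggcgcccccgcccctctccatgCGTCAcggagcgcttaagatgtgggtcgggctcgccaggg
Nr4a2: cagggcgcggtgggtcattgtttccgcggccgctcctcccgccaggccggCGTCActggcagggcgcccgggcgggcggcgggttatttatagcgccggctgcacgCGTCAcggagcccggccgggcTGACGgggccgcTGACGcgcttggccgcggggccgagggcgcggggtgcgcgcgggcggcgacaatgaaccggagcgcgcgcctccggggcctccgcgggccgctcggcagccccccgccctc
Nr4a3: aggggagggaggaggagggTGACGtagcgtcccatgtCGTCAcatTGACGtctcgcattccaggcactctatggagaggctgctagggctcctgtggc

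In the 250 bases before the RefSeq start each member held 4 CRE cores. The Nr4a1 window lies in an intron of a longer GENCODE transcript. For Nr4a3 the last 152 of the 250 bases are exon in GENCODE and are left out above, and with them the fourth core. Of 27025 genes with such a window, 0.152% (41 genes, the members included) held 4 or more cores and 17.9% held at least 1. All 4 cores of Nr4a1 were part of the longer variant TGCGTCA, which 1.78% of windows held at least once. The Nr4a1 window was the only 1 of the 27025 with 3 or more copies of that variant. The full palindrome TGACGTCA was in none of the 3 windows (1.62% of all windows), nor was the NBRE AAAGGTCA (1.31%) or a CArG box (1.40%). The Nr4a2 window held a MEF2 site (3.01% of windows) that overlapped a TATAAA sequence on the other strand (13.0%). Both strands were searched for each motif. The core holds a CG pair and the windows are rich in G and C, at 74.4%, 80.0% and 63.6% for Nr4a1, Nr4a2 and Nr4a3. A match is a description of the letters and shows no binding.

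**Figure D1:**
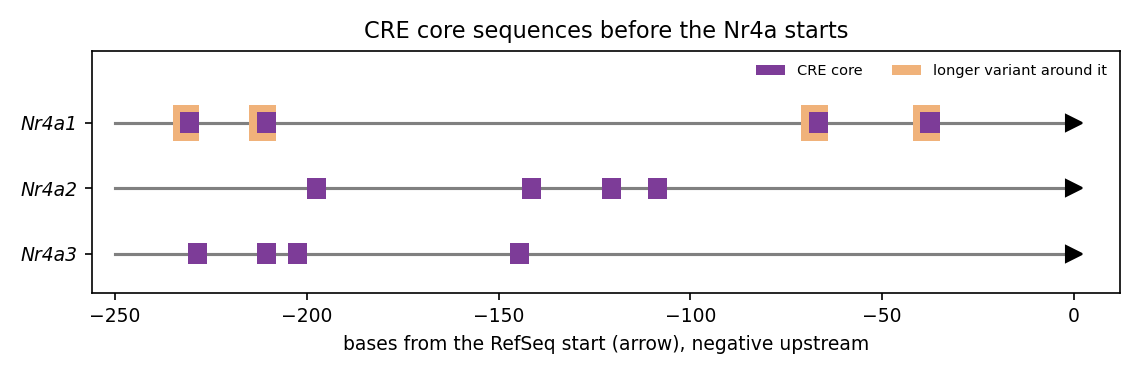
Positions of the CRE core (purple, 5 bases) and of the longer variant around it (orange, 7 bases) in the 250 bases before the RefSeq start of each Nr4a gene, with the start as an arrow at 0. Each gene has 4 cores, and the longer variant surrounds all 4 in Nr4a1 and none in the other genes.

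Total read depth is unknown for FPKM tables. The value of 1 fragment, judged from the commonest ratio among values under 0.06 FPKM, gave fragments per FPKM of 119%, 89.4% and 59.6% in KO and of 108% and 114% in WT replicates 2 and 3, each relative to WT replicate 1. A low FPKM value thus stood for the fewest fragments in KO replicate 3, which says nothing of its total depth. Ffar3 checked the labels: it had 0, 0 and 0.105 FPKM in KO, against 4.69 to 6.68 FPKM in WT. Endocrine transcripts marked all libraries as islet RNA, although Ins2 was listed at 0 throughout and Ins1 only had values in KO replicates 2 and 3. The 12 acinar markers, transcripts of the digestive enzyme cells around the islets, summed to 19901, 197820 and 421760 FPKM in KO, against 21220 to 33447 FPKM in WT. In whole islets, fewer cells of a type and less RNA per cell cannot be told apart.

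Nr4a1 was the most abundant member and showed the largest difference of the 3. It measured 94.0, 69.8 and 54.0 FPKM in KO, against 552, 436 and 490.0 FPKM in WT. The highest KO library lay far below the lowest WT library, and the order of the KO libraries was the reverse of the order of their acinar sums. In WT islets 99.0% to 99.4% of tested genes had a lower FPKM value than Nr4a1, and in KO islets 90.2% to 94.8%, so it stayed among the more abundant transcripts. Its means were 72.6 ± 20.1 FPKM in KO and 493 ± 57.9 FPKM in WT (SD, n = 3 each), a KO to WT ratio of 0.147. On the log2(FPKM + 1) scale used throughout, which compresses differences of low values, the difference between KO and WT was -2.77 (SE 0.20). In KO replicate 1 alone, whose acinar sum was below that of every WT library, it was -2.37 (SE 0.13, with the spread of the lone library assumed equal to that of WT).

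Nr4a2, best known for its need in midbrain dopamine neurons, followed the same order at a lower level. It measured 5.68, 5.16 and 4.47 FPKM in KO, against 23.2, 17.9 and 19.8 FPKM in WT. The groups did not overlap, and the KO libraries lay close together. The means were 5.10 ± 0.607 FPKM in KO and 20.3 ± 2.69 FPKM in WT (SD, n = 3 each), a ratio of 0.252 and a log2 difference of -1.80 (SE 0.11). Among the WT libraries, replicate 1 was the highest and replicate 2 the lowest for both Nr4a1 and Nr4a2.

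Summed alpha and delta cell markers were also lower in KO. The 6 alpha cell markers summed to 13602, 9297 and 7229 FPKM in KO, against 19864 to 24068 FPKM in WT. The 3 delta cell markers summed to 4639, 2737 and 2581 FPKM in KO, against 5095 to 5373 FPKM in WT. In both sums every KO library lay below every WT library, and the KO libraries had the same order as for Nr4a1 and Nr4a2. Each sum was mostly 1 gene. Gcg gave 12436, 8534 and 6474 FPKM in KO, and Sst 4539, 2668 and 2522 FPKM. Neither passed in limma (adjusted p of 0.070 and 0.084), though each passed in 3 of 15 other fits. The 10 beta cell markers summed to 35819, 72923 and 81201 FPKM in KO, against 37151 to 38915 FPKM in WT. Ins1, at 43721 and 48334 FPKM in KO replicates 2 and 3 and at 0 in the other libraries, raised those 2 sums. Iapp, the largest other part, was at 33357, 27415 and 30945 FPKM in KO and 34745 to 36606 FPKM in WT. For Iapp too, every KO library thus lay below every WT library. Of the beta cell markers, 3 of 9 tested fell and 0 rose. Of the alpha markers 3 of 6 fell and of the delta markers 1 of 3, and again 0 rose. The alpha markers Irx1 and Irx2 each lost the call in 8 of 14 other fits, and the delta marker Hhex in 1 of 15. The alpha marker Slc7a2 and the called beta markers Ucn3, Mafa and Nkx6-1 lost it in 0 of 15. Among all tested genes 19.6% were called lower and 20.3% higher. The beta markers Slc2a2, Iapp, Pdx1, Slc30a8 and G6pc2 did not pass, with log2 differences of -0.24 to 0.07, nor did Ins1. Named after their values were seen, Mafa, a transcription factor of mature beta cells, had 101.4, 63.4 and 44.7 FPKM in KO and 197 to 213 FPKM in WT (log2 difference -1.63, adjusted p = 0.0044), and Ucn3, a hormone of mature beta cells, and Hhex, a delta cell factor, had log2 differences of -0.86 and -0.90. The part of these cells in the Nr4a1 and Nr4a2 values was not tested.

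Nr4a3 did not share the pattern of Nr4a1 and Nr4a2. It measured 2.81, 5.20 and 1.19 FPKM in KO, against 3.89, 3.77 and 3.34 FPKM in WT. KO replicate 2 was above every WT library and the other KO libraries were below all of them, so the groups overlapped. The KO libraries spread over a 4.37-fold range, against 1.17-fold in WT, and the coefficient of variation was 65.8% in KO and 7.91% in WT. The log2 difference was -0.32 (SE 0.34). Single libraries decided this value: it was -0.69 without KO replicate 2 and 0.06 without KO replicate 3. KO replicate 3, the lowest, was also the library with the fewest fragments per FPKM.

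These 3 genes were proposed with the KO against WT contrast of these libraries in view, so their differences are a description and carry no test. In limma fitted over all 11669 tested genes, 2 of the 3 were lower at an adjusted p under 0.05 and Nr4a3 was not called, beside 39.9% of all tested genes called in either direction and 19.6% called lower. For Nr4a1 and Nr4a2 all KO libraries lay below all WT libraries, as was the case for 28.5% of tested genes. Nothing is read from these counts about the members.

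**Figure D2:**
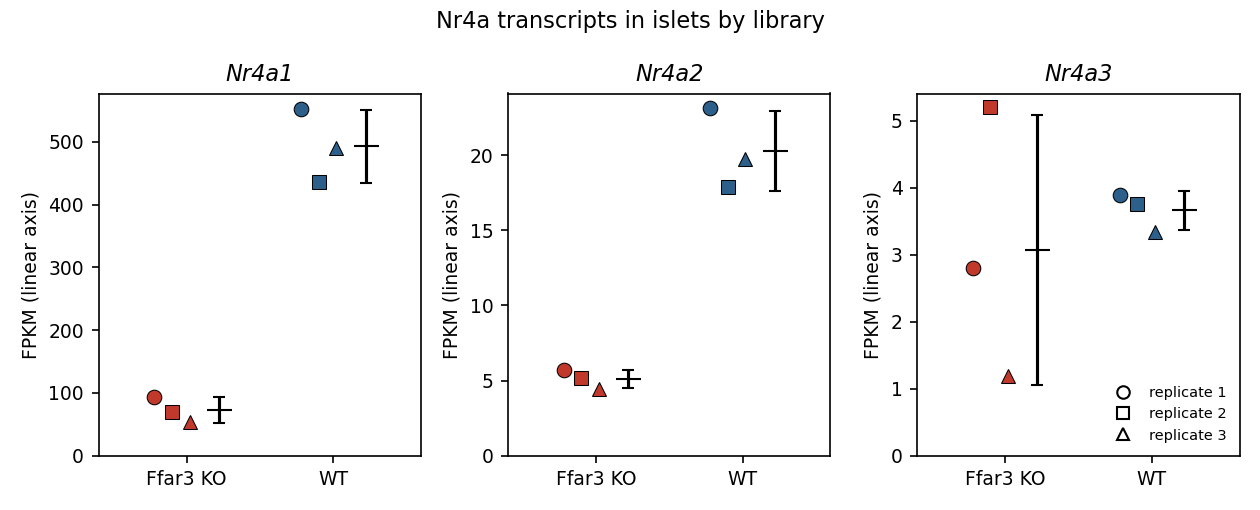
FPKM (linear axes from 0) of Nr4a1, Nr4a2 and Nr4a3 in each KO and WT library, with symbols for the replicate number and bars for mean ± SD (n = 3 each). KO libraries sit at 54.0 to 94.0 FPKM for Nr4a1 and 4.47 to 5.68 FPKM for Nr4a2, below all WT libraries, whereas for Nr4a3 they spread from 1.19 to 5.20 FPKM around the WT range.

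FPKM is scaled by transcript length, so the members' levels can be set against each other. The summed level of the family was 80.8 ± 21.4 FPKM in KO and 517 ± 60.6 FPKM in WT (SD, n = 3 each). Nr4a1 made up most of it in every library, with 91.7%, 87.1% and 90.5% in KO and 95.3% to 95.5% in WT. The share of Nr4a2 was 5.54% to 7.49% in KO and 3.85% to 4.0% in WT. The share of Nr4a3 was 2.74%, 6.49% and 1.99% in KO and 0.651% to 0.823% in WT. The shares of the lesser members were thus higher in every KO library, and the WT libraries were nearly alike. In each WT library the order was Nr4a1, Nr4a2 and Nr4a3, with Nr4a2 at 4.75 to 5.95 times the FPKM of Nr4a3. In KO replicate 2 that ratio was 0.992, so the lower members were level there, and in KO replicates 1 and 3 it was 2.02 and 3.76. The FPKM of Nr4a1 was 12.1 to 16.6 times that of Nr4a2 in KO and 23.8 to 24.8 times in WT.

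The profiles most like each member over the 6 libraries were sought among 10676 other tested genes. The measure was the root mean square difference of log2(FPKM + 1), each gene centred on its own mean, so 0 would be an identical profile. For Nr4a1 and Nr4a2 the measure is ruled by the gap between KO and WT. The profiles closest to Nr4a1 were those of Egr4 (0.187) and Fosb (0.224), both transcription factor genes induced by stimulation, the clock gene Per1 (0.332), the deleted gene Ffar3 (0.332) and the cochaperone gene Dnajb1 (0.332). Egr4 measured 1.46, 1.23 and 0.860 FPKM in KO and 10.9 to 12.2 FPKM in WT. Nr4a2 ranked at place 12 in likeness to Nr4a1, and Nr4a3 at place 2210. For Nr4a2 the closest were Nap1l5 (0.144), the cochaperone gene Dnajb4 (0.151), Gem (0.171), which encodes a small GTPase that restrains calcium channels, Irs2 (0.175), an adaptor of the insulin receptor, and Fos (0.195). Nap1l5 was at 20.1, 15.3 and 14.7 FPKM in KO and 56.3, 46.8 and 49.3 FPKM in WT, and so shared with Nr4a2 the order of the libraries within each group. Nr4a1 itself ranked at place 135.

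The profiles closest to Nr4a3 had no common gap between KO and WT. They were those of Nfkbid (0.114), which encodes an inhibitor of the NF-kappaB family, Cd83 (0.153), a surface protein of activated dendritic and B cells, the transcription factor gene Mef2c (0.153), Cd72 (0.184), a surface receptor of B cells, and Aif1 (0.200), a gene of macrophages. Nfkbid measured 2.85, 4.23 and 1.22 FPKM in KO and 3.08 to 3.69 FPKM in WT. Cd83 measured 12.5, 20.1 and 5.96 FPKM in KO and 11.4 to 12.9 FPKM in WT. In each of the 5, KO replicate 2 was the highest library and KO replicate 3 the lowest, as for Nr4a3. Nr4a2 and Nr4a1 were far down this ranking, at places 10287 and 10562.

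**Figure D3:**
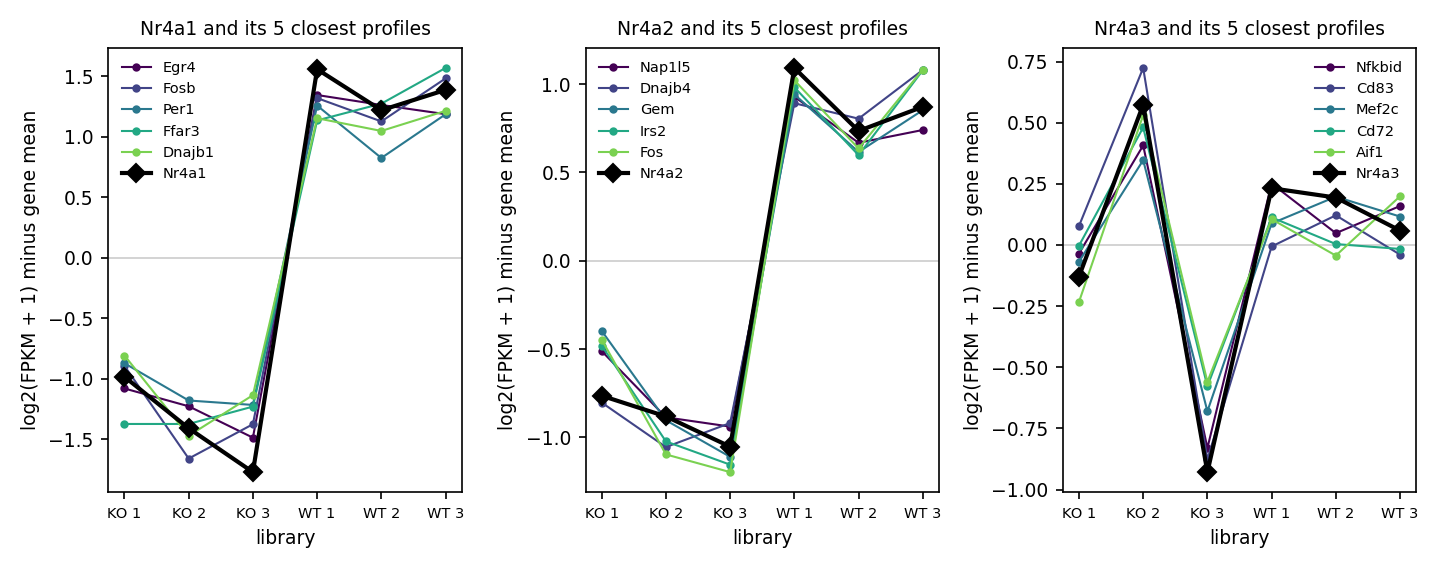
log2(FPKM + 1) minus the gene's mean in each library for each Nr4a gene (black diamonds) and the 5 tested genes closest to it by root mean square difference. Lines join the libraries for reading only and imply no order. The genes near Nr4a1 and Nr4a2 are low in all KO libraries, while those near Nr4a3 peak in KO replicate 2 and are lowest in KO replicate 3.

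Summed markers of immune cells differed between the KO libraries in the same order as Nr4a3, although not every single marker did. The 5 B cell markers summed to 26.1, 55 and 8.37 FPKM in KO, against 6.6 to 7.49 FPKM in WT. Pax5, a member of this list, was below 1 FPKM in every library. Ms4a1, a B cell surface marker, was listed at 0 in all WT libraries, and Nr4a3 was at 3.34 to 3.89 FPKM there. The 4 T cell markers summed to 8.23, 10.4 and 1.06 FPKM in KO, against 0.0337 to 0.236 FPKM in WT. Of these only Cd2 passed the filter, and Cd3d, Cd3e and Cd3g were at 0.0705 to 0.288 FPKM in KO replicate 3. Cd3g was at 1.44, 1.37 and 0.0705 FPKM in KO, highest in replicate 1. The 7 macrophage markers summed to 98.8, 104 and 68.5 FPKM in KO, against 91.4 to 104 FPKM in WT. Cd68 was higher in every KO library than in every WT library. C1qa and Emr1 were instead lower in every KO library. C1qa, the largest part of the sum, was at 50.1, 42.5 and 37.2 FPKM in KO and 51.5 to 58.8 FPKM in WT. Among KO libraries C1qa was thus highest in replicate 1, unlike Nr4a3. Among KO libraries, Nr4a3 was highest in the library with the highest sums of immune cell markers and lowest in that with the lowest sums. The WT libraries did not continue this order. Their B cell sums lay below the 8.37 FPKM of KO replicate 3, and their Nr4a3 values lay above its 1.19 FPKM. The part of these cells in the Nr4a3 values was not tested.

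**Figure D4:**
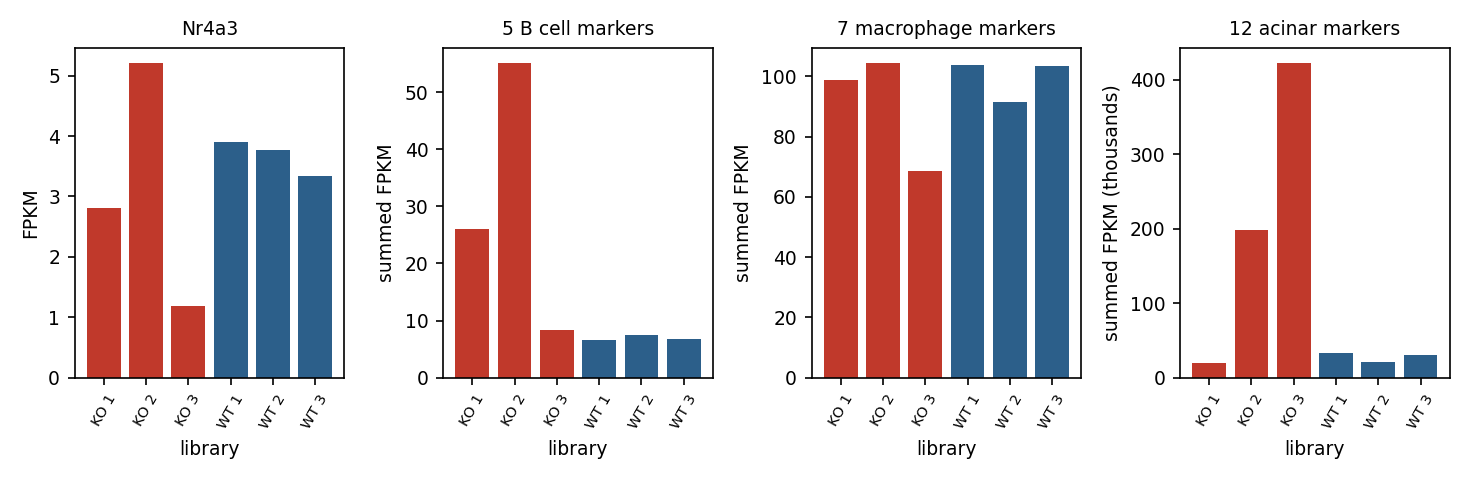
FPKM of Nr4a3 and summed FPKM of the B cell, macrophage and acinar markers in each library (bars from 0, KO in red and WT in blue, acinar sums on a larger scale). Among KO libraries, Nr4a3, the B cell sum and the macrophage sum are each highest in replicate 2 and lowest in replicate 3, which has the highest acinar sum.

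The nearest protein-coding genes on each side of the members were read from GENCODE M21. Nr4a1 (ENSMUSG00000023034.7) lies at chr15:101254269-101274795, 21.5 kb from Grasp and 9.48 kb from Atg101. Neither neighbour passed the test. Grasp averaged 5.19 ± 0.260 FPKM in KO and 5.15 ± 0.651 FPKM in WT (SD, n = 3 each), and Atg101, listed as 9430023L20Rik, 12.5 ± 0.649 FPKM in KO and 12.4 ± 0.757 FPKM in WT, with log2 differences of 0.01 (SE 0.09) and 0.01 (SE 0.07). Nr4a2 (ENSMUSG00000026826.13) lies at chr2:57106830-57124003, 114 kb from Gpd2, which encodes the mitochondrial glycerol phosphate dehydrogenase. Gpd2 was at 15.7, 13.9 and 16.0 FPKM in KO and 24.5, 23.5 and 26.6 FPKM in WT, and it fell by 0.68 on the log2 scale (SE 0.08, limma adjusted p = 0.0013). The gene on the other side, the potassium channel gene Kcnj3, is 1510 kb away and was below the filter, at 0.664, 0.161 and 0.144 FPKM in KO and 0.997 to 1.16 FPKM in WT. Nr4a3 (ENSMUSG00000028341.9) lies at chr4:48045153-48086447, between Sec61b and Stx17, and neither passed (limma adjusted p of 0.13 and 0.11, log2 differences of -0.21 each). Stx17 passed without KO replicate 3 (adjusted p = 0.044, range over the other fits 0.044 to 0.24). No annotated gene overlaps any of the 3.

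The other 46 nuclear receptor genes of the mouse were set beside the family. Of the 26 that passed the filter, 5 fell and 8 rose in KO, with a median log2 difference of 0.01 against -0.01 over all tested genes. All of the 26 differed by less than 1 log2 unit. Among the falls, Nr1h4, the bile acid receptor FXR, averaged 4.66 ± 0.688 FPKM in KO and 7.97 ± 0.780 FPKM in WT (log2 difference -0.67, adjusted p = 0.0045). Nr3c2, the mineralocorticoid receptor, averaged 3.30 ± 0.204 FPKM in KO and 4.58 ± 0.194 FPKM in WT (log2 difference -0.38, adjusted p = 0.0080). Among the rises were the clock repressor Nr1d2, with a mean of 50.7 ± 3.37 FPKM in KO and 28.9 ± 1.20 FPKM in WT (log2 difference 0.79, adjusted p = 0.00061), the liver X receptor gene Nr1h2 (0.52, adjusted p = 0.0023) and Hnf4a, a regulator of liver and islet genes (0.62, adjusted p = 0.0054). Nr1d1, the close relative of Nr1d2, was at 83.9, 62.0 and 74.9 FPKM in KO and 71.1, 54.9 and 67.0 FPKM in WT and did not pass (log2 difference 0.19, adjusted p = 0.28). Of the 26, 50% were called, against 39.9% of all tested genes. The count fell to 8 without WT replicate 1. It fell to 4, all lower, when the libraries were scaled to equal sums outside the acinar markers, a scaling that moved the median of all tested genes to -0.25 and the share of higher genes among all calls from 50.8% to 29.2%. The calls of Nr1d2, Nr1h2 and Hnf4a ended under that scaling alone.

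**Figure D5:**
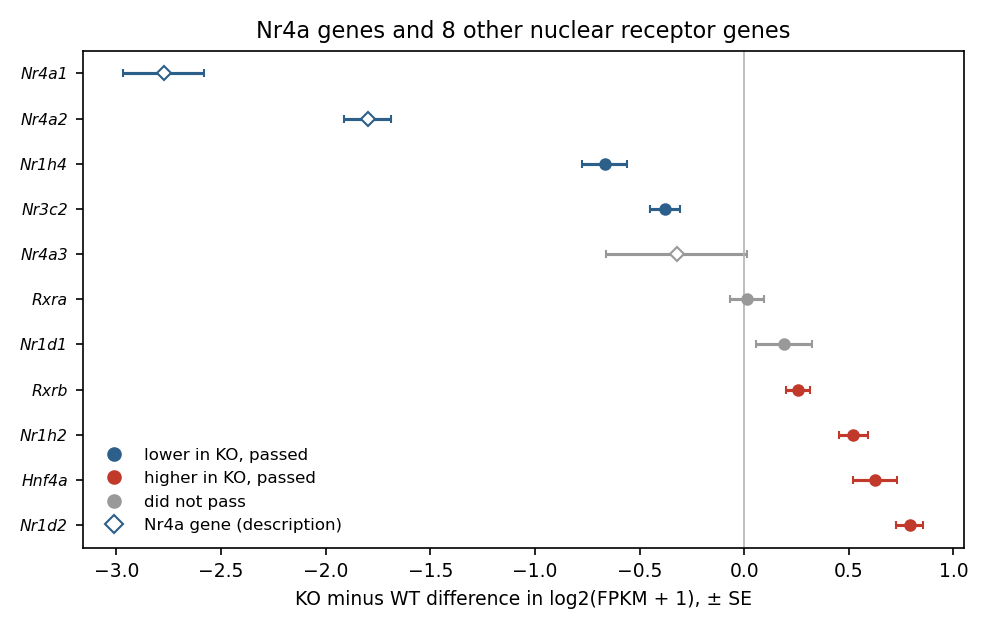
Difference in log2(FPKM + 1) between KO and WT, with its SE, of 8 tested nuclear receptor genes outside the Nr4a family that the text names (circles, coloured by call) and of the 3 Nr4a genes (open diamonds, no test). Nr4a1 and Nr4a2, at -2.77 and -1.80, lie below the range of -0.67 to 0.79 of these 8 genes, and Nr4a3 lies within it.

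Partners and coregulators of the Nr4a proteins were tested next. Of 21, 0 fell and 5 rose in limma, 23.8% beside 39.9% of all tested genes. At an unadjusted p under 0.05 the counts were 2 lower and 8 higher of the 21, and 3038 lower and 2968 higher of all 11669 tested genes. Among the retinoid X receptors, Rxra was at 10.4, 9.90 and 12.2 FPKM in KO and 10.9, 10.6 and 10.6 FPKM in WT (log2 difference 0.01, adjusted p = 0.91). Rxrb rose to a mean of 13.2 ± 0.684 FPKM in KO, against 10.9 ± 0.114 FPKM in WT (log2 difference 0.26, adjusted p = 0.014), and lost its call in 4 of 15 other fits (adjusted p of 0.0056 to 1.0). Rxrg was at most 0.0877 FPKM in any library and was not tested. Rps6ka3, a kinase of the ERK pathway, rose to 17.1 ± 0.330 FPKM, against 11.7 ± 0.974 FPKM in WT (log2 difference 0.51, adjusted p = 0.0024). Kdm1a, the demethylase of the CoREST repressor complex, and the coactivator gene Ncoa3 rose by log2 differences of 0.33 and 0.56. Mapk7, the kinase ERK5, rose by 0.32 (adjusted p = 0.033) but lost its call in 9 of 14 other fits (adjusted p of 0.029 to 0.71). Stk11, the kinase LKB1, was the most abundant gene that did not pass, at 52.4 ± 4.39 FPKM in KO and 51.3 ± 1.47 FPKM in WT. The count of called genes was 3 without WT replicate 1 and 3 without WT replicate 3, and 0 with equal sums outside the acinar markers, where 2 were lower and 1 higher at an unadjusted p under 0.05.

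Genes of the signalling that induces the family moved in both directions. Of 32 tested, 8 fell and 9 rose, 53.1% in all, against 39.9% of all tested genes (19.6% lower and 20.3% higher). The salt-inducible kinases, which hold back the CREB coactivators of the CRTC family, were split. Sik2 rose to 11.9 ± 0.624 FPKM in KO, against 6.64 ± 0.387 FPKM in WT (log2 difference 0.75, SE 0.07, adjusted p = 0.00066), and Sik3 to 32.3 ± 2.40 FPKM, against 18.7 ± 0.931 FPKM in WT (0.75, adjusted p = 0.00077). Sik1, itself an induced gene and named here after its values were seen, was at 7.5, 9.37 and 5.44 FPKM in KO and 16.4, 12.6 and 14.2 FPKM in WT and fell by 0.89 on the log2 scale (adjusted p = 0.0090). Hdac5, a deacetylase that represses MEF2 factors, and Mef2d rose by 0.67 and 0.37. Of the calcineurin genes, Ppp3r1 rose by 0.37 and Ppp3cb fell by 0.30. Srf, the factor of serum response elements, averaged 71.4 ± 5.52 FPKM in KO and 99.1 ± 7.43 FPKM in WT (log2 difference -0.47, adjusted p = 0.0064). Nkx6-1, a beta cell factor reported in rat islets to act through Nr4a1 and Nr4a3, was at 88.3, 69.4 and 65.6 FPKM in KO and 107, 121 and 125 FPKM in WT (log2 difference -0.66, adjusted p = 0.0068). Gnas, the stimulatory G protein of the cAMP pathway, was the most abundant gene that did not pass, at 653 ± 56.3 FPKM in KO and 785 ± 11.7 FPKM in WT (adjusted p = 0.079). It passed with a robust variance prior and without KO replicate 1 (adjusted p over other fits of 0.012 to 0.22). The count of called genes was 11 without WT replicate 1 and 10 without WT replicate 3, and 4, all lower, with equal sums outside the acinar markers. The calls of Sik2, Sik3, Hdac5, Mef2d, Ppp3r1 and Ppp3cb ended with those equal sums and in no other fit. Under that scaling the difference of Ppp3cb was larger, at -0.57 (adjusted p = 0.064, range over other fits 0.0024 to 0.064), while those of the other 5 were smaller.

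Genes reported as Nr4a targets, most of them in other tissues, were also split. Of 19 tested, 7 fell and 3 rose, 52.6% in all against 39.9% of all tested genes, with a median log2 difference of -0.07. Th, the tyrosine hydroxylase of dopamine synthesis and a target of Nr4a2 in neurons, was at 19.6, 15.5 and 18.0 FPKM in KO and 24.9, 25.7 and 29.8 FPKM in WT (log2 difference -0.57, SE 0.10, adjusted p = 0.0063). Ret, a receptor of neurotrophic factors, averaged 11.2 ± 0.859 FPKM in KO and 14.8 ± 0.530 FPKM in WT (log2 difference -0.38, adjusted p = 0.0066). Fbp1, an enzyme of gluconeogenesis, was at 1.7, 0.766 and 0.817 FPKM in KO and 2.97 to 3.18 FPKM in WT (log2 difference -0.98, adjusted p = 0.0058). Cdkn1a, which encodes the cell cycle inhibitor p21, rose to 97.0, 110 and 112 FPKM in KO, against 52.8, 47.4 and 46.5 FPKM in WT, the largest difference of the list among called genes (log2 difference 1.11, SE 0.08, adjusted p = 0.00040). Foxo1, a transcription factor gene restrained by insulin signalling, rose by 0.59 (adjusted p = 0.0015) and the cholesterol carrier gene Star by 0.43 (adjusted p = 0.013). The calls of Foxo1 and Star ended with equal sums outside the acinar markers. Sdhb, a subunit of respiratory complex II, was the most abundant gene that did not pass, with a log2 difference of -0.02. The cell cycle genes E2f1 and Ube2c, reported as induced by Nr4a1 and Nr4a3 in islets and named after their values were seen, had log2 differences of -0.11 (SE 0.12, adjusted p = 0.46) and 0.07 (SE 0.20, adjusted p = 0.77).

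Other genes that the same stimuli induce were mostly lower in KO. Of 30 tested, 23 fell and 2 rose (83.3% called, against 39.9% of all tested genes). The median log2 difference was -1.12, and 16 members lay at -1 or below. Of all 11669 tested genes 19.6% were called lower and 20.3% higher. Their median log2 difference was -0.01, and 99 lay at -1 or below. Earlier results of these data were known when the list was written, so its count is a description. Besides Egr4, Fosb and Per1, Arc, a synaptic gene, averaged 20.3 ± 3.41 FPKM in KO and 89.2 ± 12.6 FPKM in WT (log2 difference -2.09, SE 0.14, adjusted p = 0.00036). Egr2 averaged 0.996 ± 0.207 FPKM in KO and 4.24 ± 0.119 FPKM in WT (-1.40, adjusted p = 0.00037). Only Areg, a ligand of the EGF receptor, and Rgs2, which dampens Gq signalling, rose, by 0.99 and 0.57. Rgs2 lost its call with equal sums outside the acinar markers. Gadd45b was the most abundant that did not pass, at 62.3 ± 4.83 FPKM in KO and 68.9 ± 3.26 FPKM in WT, and it passed in KO replicate 1 alone (adjusted p = 0.038, range over other fits 0.038 to 0.38). In KO replicate 1 alone 22 of the 30 fell and 2 rose, beside 26.1% of all tested genes called in that fit (1267 lower and 1774 higher).

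Other genes with the same count of CRE cores were also looked up. A window could be matched by symbol for 8368 tested genes other than the members. Of the 32 that held 4 or more CRE cores, 5 fell and 7 rose (15.6% and 21.9%), against 19.6% and 20.8% of all 8368. Of the 32, 0 lay at a log2 difference of -1 or below, against 0.789% (66 genes) of all 8368. With so low a share, 32 genes are too few to read a difference from the 0. Of the 134 genes with 3 or more cores, which include these 32, 20.1% fell and 1.49% (2 genes) lay at -1 or below. Of the 526 with 2 cores, 23.0% fell and 2.09% lay at -1 or below, and of the 1718 with 1 core, 18.1% and 0.698%. Of the 5990 with none, 19.7% fell and 0.684% lay at -1 or below.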

How the data were processed

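The deposited tables hold 1 FPKM value per gene and library. TopHat2 2.0.8b, Cuffdiff 2.1.1 and build mm10 are named in the submitters' processing notes. The sources used here state neither the annotation nor the strand setting. The headers do not name the unit, which is taken from the tool and from sums that differ between libraries (416935 to 1056344). Median-of-ratios factors were 0.995 to 1.005 although the sums differed, so the deposited values already stood on a common median scale. The step that did so is not stated. Rows with a mean of at least 1 FPKM were tested on log2(FPKM + 1) with limma 3.58.1 (trended prior, two-sided, genotype alone in the model) in R 4.3.3, with Benjamini-Hochberg adjustment over 11669 genes and a threshold of 0.05. Every adjusted p in the text is from this fit unless another is named beside it. The fit was tested on simulated data with independent noise for each gene. Differences shared by a whole library, such as those in the acinar sums, were not part of that simulation. At most 0.12% of tested values were identical between any 2 libraries. Python 3.11.15, pandas 2.3.3 and matplotlib 3.10.9 were also used.

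The members, lists and tests were chosen with earlier results of these data known. Named genes were the members and Ffar3, their neighbours, the 5 closest profiles, and from each list the 5 smallest p past the threshold, up to 3 of the less frequent direction and the most abundant gene that did not pass. A gene that this rule names is not reported here. Symbols missing from the files were matched through RefSeq synonyms. Rxrb, Sik1, Crem and a few other genes stand in more than 1 list. Promoter windows are from RefSeq (GRCm38.p6), 1 window per gene, and matched all 3 members. Replicates are labelled biological. The sources used here give no dates or batches, so any such difference between groups cannot be told apart from genotype. Alternatives were another pseudocount (0.1), no filter or at least 5 FPKM, 3 other scalings, a robust prior, the replicate block and leaving out each library. KO replicate 1 alone was added after seeing the data.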

Additional observations from a re-analysis of the deposited data

How the results depend on the processing

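Without each library in turn, the log2 difference ranged from -2.98 to -2.58 for Nr4a1, from -1.88 to -1.70 for Nr4a2 and from -0.69 to 0.06 for Nr4a3, and the KO minus WT difference in the Nr4a1 share of the family from -6.57 to -4.24 percentage points (-5.59 with all libraries). The counts of called genes then ranged from 2481 to 5727 over all genes (4657 with all libraries), from 8 to 15 for nuclear receptors, 3 to 7 for partners, 10 to 20 for upstream genes, 8 to 13 for reported targets and 22 to 25 for early genes. All-gene counts were 2481 without WT replicate 1 and 2507 without WT replicate 3. With KO replicate 1 alone against WT the difference of Nr4a1 was -2.37 and 3041 genes were called. With a pseudocount of 0.1 the difference of Nr4a2 was -1.97. With equal sums outside the acinar markers, sums to which Ins1 gave 43721 and 48334 FPKM in KO replicates 2 and 3 and 0 elsewhere, Nr4a2 was at -2.04, Nr4a1 at -3.05 and Nr4a3 at -0.50, and 1877 genes were called (1328 lower), among them 4 nuclear receptors, 0 partners and 4 upstream genes. Median-of-ratios factors and quantile normalization left the members' differences within -2.85 to -2.77, -1.84 to -1.79 and -0.35 to -0.32. Same-numbered KO and WT libraries did not deviate together (correlations across genes of -0.206, -0.089 and 0.028), so the numbers were not taken as pairs. With the replicate block 3865 genes were called, and the members' differences were -2.77, -1.80 and -0.32. Depth is unknown, and KO replicate 3 gives the least precise low values, which touches Nr4a3 most.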
